A study of Cucumis sativus with 25 samples.

Results

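In cucumber shoot apices, 43 genes of the 21221 in the mRNA table were higher in warm than in cool plants under long days, while their short-day means stayed close. They were chosen by measured values. The lowest of the 3 HL values had to lie above the highest LL value, the HL mean had to be at least 5 FPKM (fragments counted for a gene, scaled to its transcript length and to the fragments sequenced in the library) and at least 2 times the LL mean, and the HS mean had to lie between 0.67 and 1.5 times the LS mean. All plants were seedlings of the cucumber (Cucumis sativus) inbred line 9930, grown in climate chambers and sampled at the same leaf stage. HL plants had 16 h of light at 28 °C and 8 h of dark at 25 °C, and HS plants had 8 h of light and 16 h of dark at the same temperatures. LL plants had 16 h of light at 20 °C and 8 h of dark at 15 °C, and LS plants had 8 h of light and 16 h of dark at those lower temperatures. Each treatment had 3 mRNA libraries, made from dissected shoot tips of many plants, which the labels call biological replicates.

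Plants read day length and temperature through shared components. In Arabidopsis, the photoreceptor phytochrome B also responds to warmth, the clock protein ELF3 loses activity in the warm, and the transcription factor PIF4 gains activity, so warmth can act differently in long and in short days. The shoot apex holds the meristem and the youngest leaf and flower primordia, where such signals meet organ formation. In cucumber, temperature and day length also shift the balance of male and female flowers.

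The table lists genes by the IDs of the cucumber 9930 gene set, and 0 of the 21221 IDs matched the RefSeq table used here. No gene name or role is therefore given here, and marker genes of the apex were not checked. The digit after "Csa" in an ID is the chromosome number in this gene set. By that digit the 43 genes fell on all 7 chromosomes, with 9 each on chromosomes 3 and 6, 8 on chromosome 2, 6 on chromosome 1, 4 each on chromosomes 5 and 7, and 3 on chromosome 4. The share of measured genes chosen was between 0.119% (chromosome 4) and 0.307% (chromosome 2). In the order of the ID numbers, the nearest pair was Csa2M348850.1 and Csa2M349090.1, with 24 measured genes between them, so no 2 of the 43 were neighbours.

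Most of the 43 genes were expressed at low to moderate levels. The mean level in HL ranged from 5.17 to 1130 FPKM with a median of 15.4. It was below 10 FPKM for 15 genes, from 10 to below 50 for 20, and at least 50 for 8. The ratio of mean HL to mean LL ranged from 2.01 to 4.34 with a median of 2.24. It was below 2.2 for 21 genes and at least 3 for 7, so much of the list sits near its own lower limit. Just inside that limit were Csa3M732400.1, Csa3M110030.1 and Csa1M569280.1, at ratios of 2.01, 2.02 and 2.02, and just outside were Csa2M173020.1, Csa6M383530.1 and Csa1M033030.1, at 2.00, 1.99 and 1.99. The ratio of mean HS to mean LS ranged from 0.778 to 1.495 with a median of 1.28, and 35 of the 43 genes had a ratio above 1. Both ratios were used in the choice, so these values only describe the list. The filter on low values kept 18655 genes, those reaching 1 FPKM in 3 or more libraries. Over these the median log2 ratio of means was 0.00 for HL over LL and 0.03 for HS over LS.

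All 43 genes were among those 18655, which the minimum HL mean of the rule favours. In 10 of the 43, every HS library lay above every LS library, although their means were within 1.5 times of each other. Over the tested genes 20.1% showed that separation. The levels come from whole apices, in which a lower share of a cell type and less RNA per cell cannot be told apart.

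**Figure D1:**
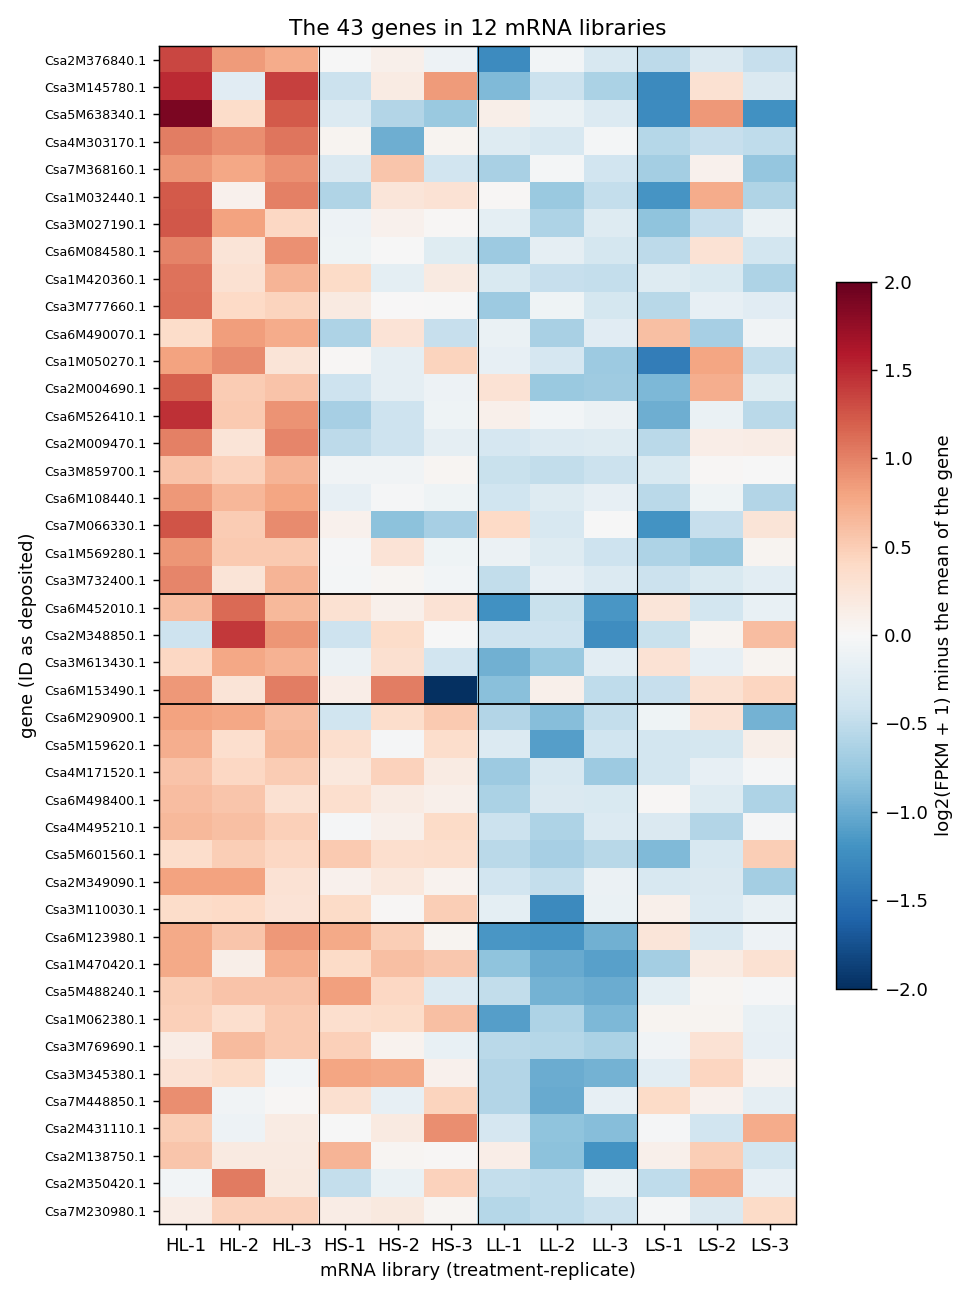
Each row is 1 of the 43 genes and each column 1 of the 12 mRNA libraries, and the colour is log2(FPKM + 1) minus the gene's own mean, with the scale ending at 2 in size (1 value lies beyond it). Black lines separate, from top to bottom, 20 genes with mean HL at least 1.5 times mean HS, 4 that also had mean LL at most 0.67 times mean LS, 8 with neither, and 11 with only the low LL mean.

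The rule fixes the contrast between the 2 day lengths but not where it comes from. A gene can qualify because it is raised in HL or because it is lowered in LL. Both kinds occurred. In 20 genes the mean in HL was at least 1.5 times that in HS, while LL was above 0.67 times LS. In 11 genes LL was at most 0.67 times LS, while HL was below 1.5 times HS. A further 4 genes met both conditions and 8 met neither. The highest mean was in HL for 41 genes and in HS for 2. The lowest mean was in LL for 32 genes, in LS for 8 and in HS for 3. These groups describe the means only. They were drawn after the values were seen and carry no test.

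Among the genes raised in HL, Csa3M027190.1 was by far the most abundant. Its libraries read 1472, 1086 and 831 FPKM in HL, then 579, 659 and 632 in HS, 544, 404 and 520 in LL and lastly 357, 450 and 567 in LS. Every HL library lay above all 9 others, and every HS library lay above all LL and LS libraries, which overlapped. Its mean was 1130 ± 323 (SD, n = 3) in HL against 490 ± 74.7 in LL, a ratio of 2.31.

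Csa6M108440.1 had the same shape with tight replicates. It read 87.6, 76.7 and 83.3 FPKM in HL, then 42.6, 46.9 and 44.9 in HS, 35.9, 39.7 and 42.8 in LL and lastly 32.5, 44.9 and 31.5 in LS. The HL libraries stood clear of all others, and the remaining 9 formed 1 range. The ratio of means was 2.09 in HL over LL and 1.24 in HS over LS.

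In Csa2M009470.1 the HL libraries read 128, 75.2 and 124 FPKM, against 43.6, 46.9 and 55.8 in HS, 49.6, 51.8 and 52.6 in LL, and 43.1, 68.9 and 70.0 in LS. HL again lay above every other library, with HL replicate 2 close to the top of LS. The mean in HS was 0.804 times that in LS, so the short-day means ran the other way, with overlapping libraries.

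Csa4M303170.1 showed the pattern at a low level, at 10.6, 9.72 and 10.8 FPKM in HL, then 4.89, 1.88 and 4.85 in HS, 3.73, 3.51 and 4.52 in LL and lastly 2.81, 3.11 and 2.96 in LS. Csa6M526410.1 read 26.1, 13.2 and 17.5 in HL, then 5.27, 6.40 and 8.35 in HS, 9.68, 8.55 and 8.12 in LL and lastly 4.01, 8.05 and 5.85 in LS. In both, the HL libraries did not overlap any other treatment. In both, the mean was also higher in LL than in LS, at ratios of 1.32 and 1.47, with no overlap between LL and LS, so the long-day libraries were the higher ones at either temperature.

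Of the other genes raised in HL, Csa2M376840.1 had the largest long-day ratio of the group, 3.39. It read 11.9, 8.26 and 7.56 FPKM in HL, then 4.13, 4.5 and 3.77 in HS, 1.14, 3.94 and 3.11 in LL and lastly 2.59, 3.21 and 2.72 in LS. HL lay above all other libraries, and all HS libraries lay above all LS libraries, so this gene also ran higher in the warm under short days, at a ratio of 1.46.

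All HS libraries also lay above all LS libraries in Csa1M420360.1, but its HL and HS libraries overlapped. It read 41.7, 24.1 and 31.3 FPKM in HL, then 25.4, 16.6 and 21.9 in HS, 15.4, 13.7 and 13.6 in LL and lastly 15.9, 15.4 and 12.1 in LS. Csa3M777660.1 read 18.96, 11.2 and 11.6 in HL, then 9.53, 8.37 and 8.3 in HS, 4.61, 7.82 and 6.28 in LL and lastly 5.36, 7.35 and 7 in LS. In both, the warm libraries lay above the cool ones in either day length, with the greater step in long days. Over the 20 genes raised in HL, the HL mean had a median of 31.2 FPKM, HL lay above all others in 12, and HS lay above LS in every library in 5. Over all tested genes the shares with these separations were 1.66% and 20.1%. The conditions that define the group favour the first count, and nothing is read from the second.

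Csa7M066330.1 resembled Csa4M303170.1 and Csa6M526410.1 in its long-day excess, with 10.6, 5.93 and 8.36 FPKM in HL, then 4.18, 1.75 and 2.08 in HS, 5.41, 2.91 and 3.86 in LL and lastly 1.12, 2.53 and 4.83 in LS. Its ratio of LL to LS means was 1.44, but the LL and LS libraries overlapped. Of the 43 genes, 10 had a higher mean in LL than in LS.

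The genes lowered in LL looked different. In Csa6M123980.1 the libraries read 5.86, 5.74 and 6.82 FPKM in LL, 17.2, 11.3 and 13.2 in LS, 24.8, 20.5 and 14.9 in HS, and 24.8, 21.4 and 27.0 in HL. The LL libraries lay below all 9 others, and HL and HS overlapped. The ratio of means was 3.98 in HL over LL, 1.44 in HS over LS and 1.22 in HL over HS.

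Csa1M062380.1 read 5.04, 7.42 and 5.95 FPKM in LL and 12.4, 12.5 and 10.7 in LS. At the high temperature it read 17.0, 15.4 and 17.6 in HL and 15.2, 15.6 and 18.6 in HS. HL and HS overlapped, with a ratio of means of 1.01, while all LL libraries lay below all LS libraries, with a ratio of 0.518.

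Csa1M470420.1 had 6.95, 5.94 and 5.58 FPKM in LL, 7.65, 14.6 and 16.2 in LS, 17.1, 20.2 and 19.2 in HS, and 22.6, 14.1 and 21.98 in HL. Csa3M345380.1 had 9.95, 7.21 and 7.48 in LL, 13.1, 21.0 and 16.2 in LS, 27.1, 26.7 and 16.4 in HS, and 19.0, 20.1 and 14.8 in HL. In both genes all LL libraries lay below all others. Csa3M345380.1 is 1 of the 2 genes with their highest mean in HS, the other being Csa2M431110.1, and its HL mean was 0.768 times its HS mean.

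The 11 genes lowered in LL had HL means from 5.17 to 24.4 FPKM and a median of 7.98. LL lay below all other libraries in 7 of them, and HL lay above all others in 0, where 0.831% and 1.66% of the tested genes did. The conditions that define the group favour a high first count and a low second one, so the counts only describe the group. Csa5M488240.1 read 7.05, 7.43 and 7.46 FPKM in HL, then 9.09, 6.58 and 3.73 in HS, 3.06, 1.97 and 1.88 in LL and lastly 3.97, 4.86 and 4.59 in LS. Its LL libraries were the lowest and its HS libraries spread across the range of HL and LS. A place in this group could also rest on LS replicate 2. Csa2M350420.1 read 2.34, 2.27 and 3.25 FPKM in LL and 2.28, 6.73 and 3.16 in LS, so only that library stood above LL.

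Csa2M138750.1 showed how thin the separation could be in this group. It read 6.26, 4.62 and 4.62 FPKM in HL, then 6.91, 4.07 and 4.04 in HS, 4.46, 1.82 and 1.16 in LL and lastly 4.33, 6.01 and 2.85 in LS. Only HL and LL were apart, and LL replicate 1 lay within the range of every other treatment but HL.

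Csa6M452010.1 had the largest ratio of HL to LL, 4.34, and combined both shapes. It read 8.02, 12.02 and 8.30 FPKM in HL, then 6.31, 5.34 and 6.21 in HS, 1.54, 3.36 and 1.63 in LL and lastly 5.96, 3.59 and 4.35 in LS. HL lay above all other libraries and LL below all others, with HS and LS between them and overlapping. Csa3M859700.1 was the only other gene with both separations. It read 29.9, 27.7 and 32.4 FPKM in HL, then 18.9, 18.9 and 20.4 in HS, 14.3, 13.8 and 14.5 in LL and lastly 15.9, 20.2 and 19.7 in LS.

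Csa6M153490.1 also met both conditions on the means, but rests on an uneven HS group. It read 8.19, 5.03 and 9.25 FPKM in HL, 4.56 and 9.33 in HS replicates 1 and 2, 1.84, 4.43 and 2.54 in LL, and 2.69, 5.26 and 5.8 in LS, and it was listed at 0 in HS replicate 3. Its HS mean, and with it the short-day ratio of 1.01, therefore depends on that library.

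The 8 genes that met neither condition sat near the upper limit of the short-day band, with HS to LS ratios from 1.32 to 1.495 and a median of 1.44. Csa6M290900.1 was the one with the largest long-day ratio, 2.77. It read 23.2, 22.6 and 20.2 FPKM in HL, then 9.55, 16.6 and 18.98 in HS, 8.24, 6.7 and 8.93 in LL and lastly 12.1, 15.9 and 6.2 in LS. HL lay above all other libraries, and HS overlapped LS.

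In Csa4M171520.1 the libraries read 10.5, 9.35 and 9.99 FPKM in HL, then 8.01, 9.73 and 7.65 in HS, 3.7, 5.21 and 3.69 in LL and lastly 5.02, 5.89 and 6.6 in LS. All warm libraries lay above all cool ones. The ratio of means was 2.37 in long days and 1.45 in short days, so the gene differed from one raised in both day lengths by the size of the short-day step.

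Counted over the list, the HL libraries lay above all 9 others in 17 of the 43 genes, where 1.66% of the tested genes did. The LL libraries lay below all 9 others in 9, where 0.831% of the tested genes did. Both counts are tied to the rule, which asked for HL above LL, and nothing is read from them beyond the shapes.

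**Figure D2:**
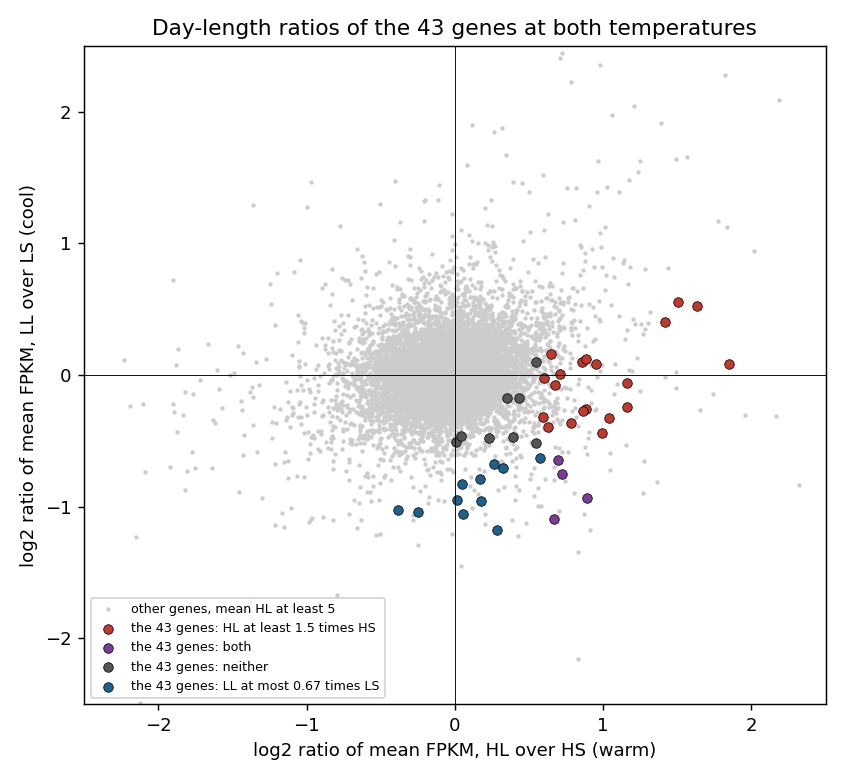
The x axis is the log2 ratio of mean FPKM of HL over HS and the y axis that of LL over LS. Coloured points are the 43 genes, with medians of 0.63 on x and -0.39 on y (-0.20 without LS replicate 2), and grey points are the other genes with a mean HL of at least 5 FPKM (6 of 14899 lie outside the axes). The 43 genes spread from high x near y = 0 to low y near x = 0.

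Treatments were also compared with limma on log2(FPKM + 1), fitted to all 12 libraries over the 18655 tested genes. A call needed a Benjamini-Hochberg adjusted p under 0.05 and a ratio of means over 2. In HL vs LL, 29 of the 43 genes were called higher, where 1.3% of all tested genes were, a count that the rule itself sets. In HS vs LS, 0 of the 43 were called, where 4.3% were. That 0 was fixed by the rule, which kept the short-day ratio below 1.5 while a call needed a ratio over 2. An unadjusted p under 0.05 was found for 12 of the 43 and for 5996 of all 18655 in that comparison. For HL over HS, 3 were called higher (Csa2M009470.1, Csa6M526410.1 and Csa4M303170.1), where 0.134% were. In LL vs LS, 0 were called lower, where 0.0161% were, and 13 had an unadjusted p under 0.05, as did 1436 of all 18655. The HL to HS and LL to LS ratios are arithmetically bound to the 2 ratios in the rule, so these counts are no independent evidence. The HL vs LL count fell to 14 without HL replicate 1 and to 19 without LL replicate 2. The 3 calls over HS fell to 0 without HL replicate 1, HL replicate 3, HS replicate 1 or HS replicate 3, and to 1 without HS replicate 2 or LL replicate 2, and HS vs LS gained 1 call without LS replicate 2 or LS replicate 3.

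The test of the difference between day lengths called none of the 43 genes. The interaction is the long-day warm-minus-cool difference less the short-day one, on the log2(FPKM + 1) scale, and a call needed a term over 1 in size and a limma adjusted p under 0.05. Of all tested genes 9 passed, or 0.0482%, and all 9 had a negative term, meaning a lower warm-minus-cool difference in long than in short days. Of the 43, 23 had an unadjusted p under 0.05, as did 1598 of all 18655, and the choice of genes favours such values. The median interaction term of the 43 was 0.84, against -0.03 over all tested genes, and the limits of the rule on both ratios of means favour a positive sign. For none of the 43, then, did a test show that the response to warmth differed between day lengths, and the name of the list rests on the thresholds of the rule. The test called only 0.0482% of all tested genes, and 0 with the positive sign that the rule favours. That share is no rate for a list chosen on these ratios. The 0 therefore does not show that the response was the same in both day lengths. The interaction called 2 of the 43 without HL replicate 2 and 1 without LS replicate 1.

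The rule was then applied to 2 of the 3 replicate numbers, and the HL to LL ratio was read in the number left out, which had no part in the choice. With number 1 left out, 77 genes were chosen and 21 of them (27.3%) had a ratio of at least 2 in replicate 1. With number 2 left out it was 19 of 83 (22.9%), and with number 3 left out 22 of 62 (35.5%). Over all genes with an HL mean of at least 5 FPKM in the 2 replicates used, the share was 2.65%, 3.84% and 2.44%. The median ratio of the chosen genes in the unused replicate was 1.47, 1.36 and 1.59, against 1.01, 1.01 and 0.993 over all such genes. At the median, HL was thus above LL in the unused libraries too, but by less than the 2 times set by the rule. The shares over all genes were not matched for level or replicate spread. The median coefficient of variation (SD over mean) in HL was 11.2% for all genes with an HL mean of at least 5 FPKM. It was 20.1% for the 43 genes. How much of the gap in shares goes with this spread was not tested.

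The short-day condition was met in only some of these genes. In the unused replicate, the HS to LS ratio lay between 0.67 and 1.5 for 33 of 77, 47 of 83 and 30 of 62 genes, with median ratios of 1.58, 1.24 and 1.40. An HL to LL ratio of at least 2 together with an HS to LS ratio in that band was found for 7 of 77, 12 of 83 and 12 of 62. The same shares over all genes were not computed, so these counts only describe the chosen genes. Genes raised in both day lengths were chosen by asking the long-day conditions of HS and LS as well, apart from the 5 FPKM minimum, and genes raised in short days only by exchanging the roles of the day lengths. Of the first, 68.3%, 71.6% and 62.2% had an HL to LL ratio of at least 2 in the unused replicate. Of the second, 42.8%, 37.7% and 25.9% had an HS to LS ratio of at least 2. These lists hold 166 and 159 genes with all libraries used. Their shares are given side by side and were not tested against each other.

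**Figure D3:**
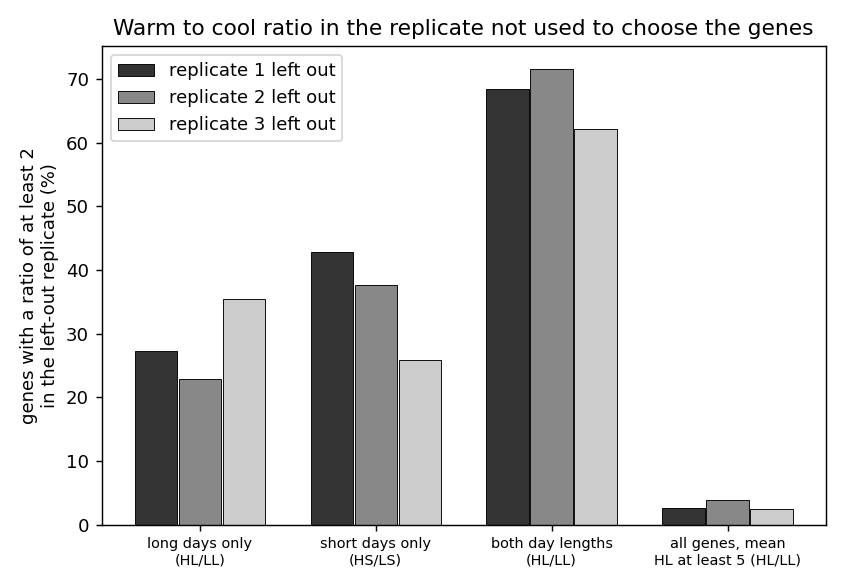
Bars give the percent of genes whose warm to cool ratio was at least 2 in the replicate number that was not used to choose them, with 1 bar for each number left out, for genes chosen as raised by warmth in long days only, in short days only and in both day lengths, and for all genes with a mean HL of at least 5 FPKM. The long-day list reached 22.9% to 35.5%, all genes 2.44% to 3.84%, with no matching for level or replicate spread.

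The spread between replicates of the 43 genes was wide. The median coefficient of variation over 3 replicates was 20.1% for HL, 19.7% for HS, 19.1% for LL and 26.1% for LS. Over the 6366 genes with an HL mean within the middle range of the 43 (between their lower and upper quartiles), it was 12.6%, 11.9%, 11.5% and 12.7%. The genes raised in both day lengths were in a similar range to the 43, at 17.4%, 20.7%, 19.8% and 23.2%. The 43 genes thus had a wider median replicate spread than these 6366 genes in each treatment, which was not tested. The 6366 were picked by HL mean alone, while the 43 include genes outside that middle range. The median level of the 43 was 15.4 FPKM in HL but 6.14 in LL. In short days it was 9.29 (warm) and 8.55 (cool). Outside HL the comparison was therefore not matched for level. How much of the gap in spread goes with level was not tested.

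A single library often decided whether a gene met the rule. When each of the 12 libraries was left out in turn, 8 of the 43 genes stayed in the list every time and 35 dropped out at least once. The most genes were lost without HL replicate 1 (15), LS replicate 2 (13) and HS replicate 3 (11), and the fewest without HL replicate 3 (2). HL replicate 1 was the highest of the HL libraries in 24 of the 43 genes, and LS replicate 1 was the lowest of the LS libraries in 24. Shares over all tested genes were not computed for these 2 counts, so they only describe the list.

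The 8 genes that stayed in under every such change were Csa6M108440.1, Csa6M084580.1, Csa3M859700.1, Csa1M062380.1, Csa3M613430.1, Csa2M348850.1, Csa3M769690.1 and Csa6M452010.1. Csa3M613430.1 read 13.0, 17.0 and 16.1 FPKM in HL, then 8.69, 12.2 and 7.03 in HS, 4.39, 5.30 and 8.10 in LL and lastly 11.8, 8.39 and 9.87 in LS. Csa3M769690.1 read 9.40, 13.6 and 12.4 in HL, then 12.1, 8.79 and 7.47 in HS, 5.41, 5.28 and 5.02 in LL and lastly 7.92, 10.4 and 7.32 in LS. In the first HL stood above all others, and in the second LL stood below all others.

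Staying in the list was not the same as having close replicates. Csa6M084580.1 read 71.8, 42.6 and 68.0 FPKM in HL, then 33.4, 35.4 and 29.8 in HS, 21.1, 31.2 and 27.5 in LL and lastly 24.5, 43.5 and 27.4 in LS. Csa2M348850.1 read 4.51, 18.6 and 12.6 in HL against 4.49, 4.5 and 2.11 in LL, so HL replicate 1 barely cleared LL. Its HS libraries read 4.49, 8.49 and 6.30, and its LS libraries 4.41, 6.61 and 10.2. Replicate 1 of this gene was thus at almost the same level in all 4 treatments, and its difference between HL and LL came from the other replicates. Values of 4.41 to 4.51 FPKM recurred in this gene. The number of fragments behind them is unknown, so such equal levels can stand for only a few fragments each.

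**Figure D4:**
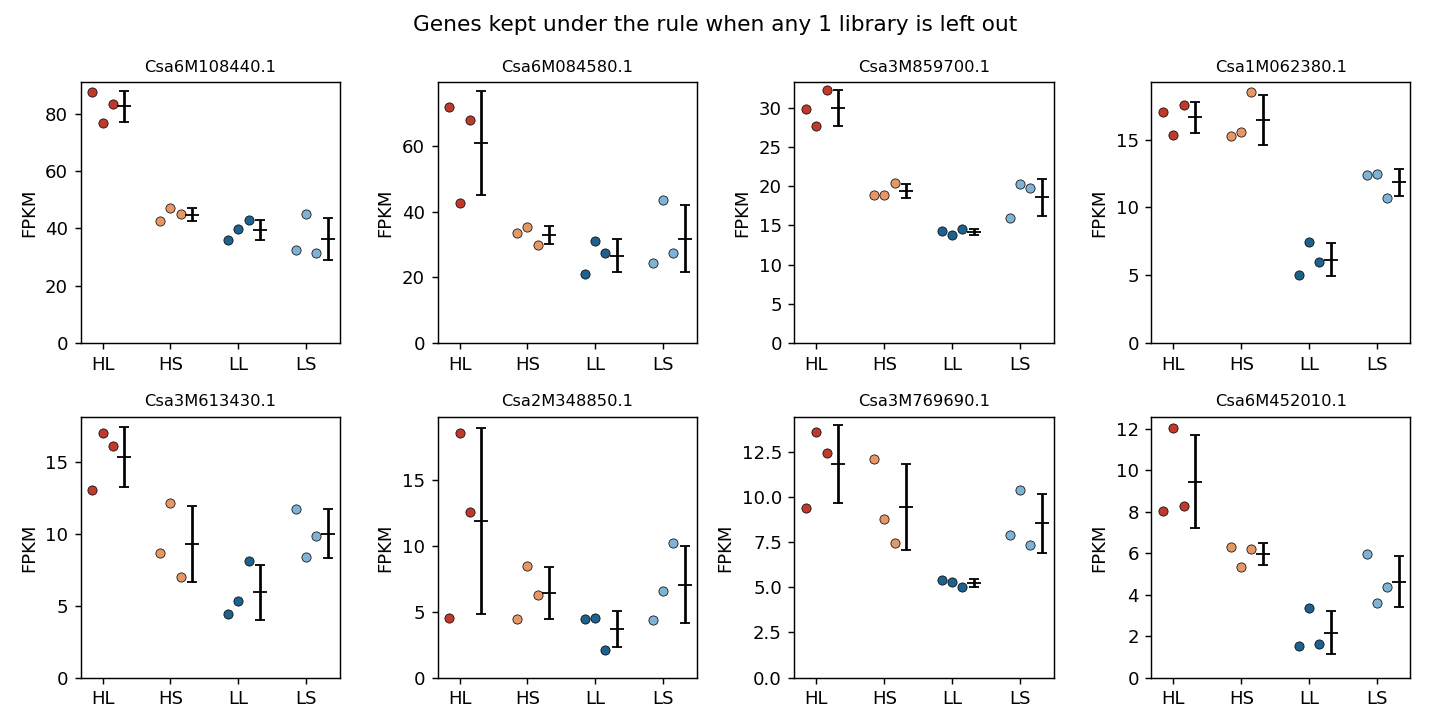
The 8 genes that met the rule whichever of the 12 libraries was left out. The y axis of each panel is FPKM from 0, the points are the 3 libraries of a treatment, and the bar beside them is the mean and SD. HL stands highest in Csa6M108440.1 (76.7 to 87.6 FPKM), and LL stands lowest in Csa1M062380.1 (5.04 to 7.42 FPKM).

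LS replicate 2 moved the short-day ratio of a set of these genes. In 7 of the 43 (16.3%) its value was at least 2 times the mean of the other 2 LS libraries, where 2.88% of all tested genes were. The cap on the short-day ratio favours genes with 1 high LS library, so this excess only describes the list. For the other 2 LS libraries, 1 and 3 of the 43 were. The 7 genes were Csa5M638340.1, Csa1M032440.1, Csa1M050270.1, Csa2M004690.1, Csa2M350420.1, Csa3M145780.1 and Csa7M368160.1, and all but Csa2M350420.1 were among the genes raised in HL.

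Csa1M050270.1 read 15.0, 71.3 and 29.2 FPKM in LS and 41.6, 36.2 and 56.0 in HS. Its long-day libraries read 36.3, 32.2 and 24.2 in LL and 72.4, 80.1 and 49.3 in HL. LS replicate 2 thus reached the HL range. The ratio of HS to LS means was 1.16 with all libraries and 2.02 without LS replicate 2, close to the HL to LL ratio of 2.17.

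Csa1M032440.1 read 5.04, 21.8 and 8.03 FPKM in its LS libraries and 8.00, 15.2 and 15.6 in HS, and its short-day ratio moved from 1.11 to 1.98. Csa5M638340.1 read 12.9, 59.1 and 13.4 in its LS libraries and 26.5, 21.1 and 18.8 in HS, and the ratio moved from 0.778 to 1.69. Csa3M145780.1, the gene with the second highest level of the 43, read 35.1, 108 and 70.4 in its LS libraries and 63.6, 96.6 and 156 in HS, and the ratio moved from 1.48 to 2.00. In these 3 genes LS replicate 2 was the highest LS library and raised the LS mean.

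Csa2M004690.1 read 17.4, 56.2 and 28.0 FPKM in LS, and its ratio of 0.840 moved above 1 without LS replicate 2 but stayed inside the band. Over the whole list, 12 of the 43 genes had a short-day ratio of at least 1.5 without LS replicate 2, against 5 without LS replicate 1 and 8 without LS replicate 3. Whether LS replicate 2 differed in tissue, harvest or preparation was not tested.

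**Figure D5:**
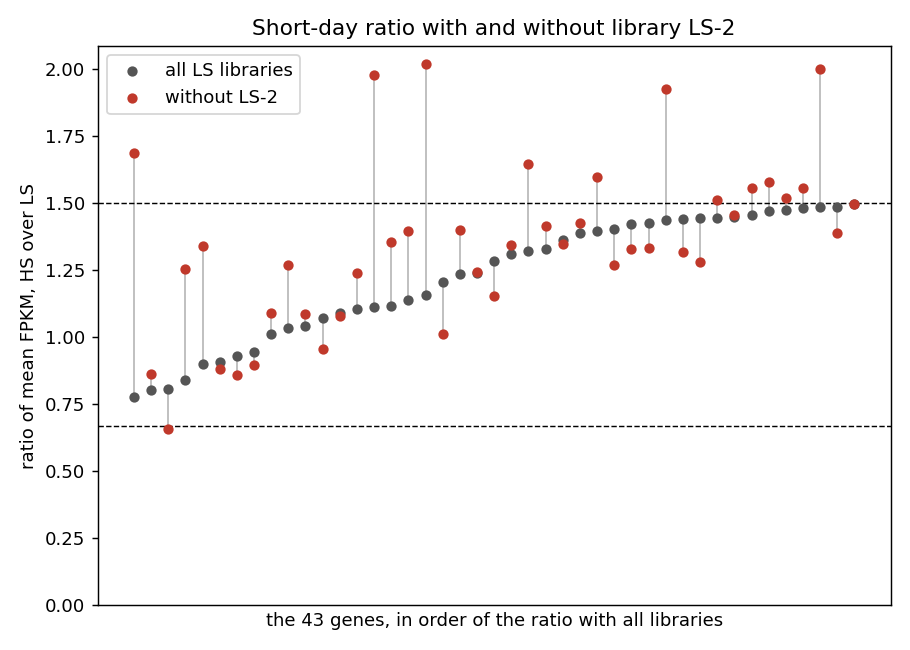
Each position on the x axis is 1 of the 43 genes, in order of the ratio of mean FPKM of HS over LS (grey, all 3 LS libraries), and red points give the same ratio without LS replicate 2. The dashed lines are the limits of the rule, 0.67 and 1.5, and 12 red points lie at or above the upper line, the highest at 2.02, and 1 lies below the lower.

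The libraries as wholes were alike. The FPKM of a library summed to between 911598 and 951069, and the median FPKM of genes at 1 or more in every library was 24.9 to 27.0. Pearson's r across genes, on log2(FPKM + 1), was 0.967 to 0.977 between libraries of 1 treatment and 0.942 to 0.974 between treatments. The paper gives a range of clean reads per library, but the reads behind each FPKM are unknown from this table. No counting interval is therefore given.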

How the data were processed

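Shoot tips of cucumber were profiled by poly-A mRNA sequencing in 4 treatments with 3 libraries each. The authors aligned paired-end reads to the cucumber 9930 reference genes and deposited FPKM. The submitters' processing notes name Bowtie and RSEM, whose roles and versions are not given in the sources used here. FPKM carry no read counts, so no count model was used. Groups and replicate numbers came from sample titles, and all sample columns of the table were used (0 left out). The small RNA and degradome tables were not used here.

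The rule was applied to the deposited FPKM. Treatments were compared with limma 3.58.1 in R 4.3.3 (trended variance, log2(FPKM + 1), pseudocount 1, genes reaching 1 FPKM in 3 or more libraries), without a replicate block. A fold change on this scale is understated for low genes. The fit was tested on simulated data. Other steps used Python 3.11.15 with pandas 2.3.3 and matplotlib 3.10.9. All tests are two-sided. A p-value weighs a difference in treatment means against the spread between replicate libraries, as limma estimates it with all genes.

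The genes and the comparisons were chosen with earlier results of these data known. Lists of pathway genes and markers, and promoter motifs, had been planned but need gene names or sequences, and were not analysed here. The planned naming rule allowed only 2 genes without a name, those with the highest HL mean (Csa3M027190.1 and Csa3M145780.1). All other genes named, those beside the 2-fold limit included, were chosen after their values were seen.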

Additional observations from a re-analysis of the deposited data

How the results depend on the processing

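The number of genes meeting the rule depended on its limits. It was 178 with HL at least 1.5 times LL, 7 with at least 3 times, 20 with HS from 0.8 times LS up to the inverse of that, 72 with an HL mean of at least 1 FPKM and 28 with at least 10. With no condition on overlap it was 53, with FPKM scaled to equal medians 40 (38 shared with the 43), and with medians in place of means 38 (28 shared). Leaving out 1 library gave 34 to 69 genes (69 without HL replicate 2 and 66 without LL replicate 1), and leaving out 1 replicate number in all treatments 62 to 83, of which 25 to 28 were among the 43.

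The replicate block rests on numbers alone. Over 18 pairs of same-numbered libraries, deviations from treatment means had a mean r of 0.02 (lowest -0.05, highest 0.11), so the numbers were not taken to pair the samples. With the replicate block the 43 genes had 27 calls in HL vs LL, 2 in HL vs HS and 0 in the other 3 comparisons. Without the fold threshold, 5 were called in HL vs HS and 1 in HS vs LS. With 1 library left out, calls ranged from 14 to 31 in HL vs LL, 0 to 1 in HS vs LS, 0 to 4 in HL vs HS and 0 to 2 for the interaction, and were 0 in LL vs LS. A pseudocount of 0.1, no filter and scaled FPKM left all 5 counts within 1.5 times.

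The median log2 ratio of the 43 genes was 0.63 in HL vs HS and -0.39 in LL vs LS, and leaving out 1 library moved the second to between -0.57 (without LS replicate 1) and -0.20 (without LS replicate 2). With a ratio of at least 1.5 in the unused replicate, 33, 34 and 33 genes qualified in place of 21, 19 and 22. Promoter motifs were not run, for want of sequences.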
